A study of Mus musculus with 40 samples.

Results

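Cdkn1a, Btg2, Mdm2 and Gadd45a, listed in the deposited table as CDKN1A, BTG2, MDM2 and GADD45A, are genes of the p53 and growth arrest response. They were chosen by name, as the rows whose symbol is one of these 4, and were followed in the duodenum of mice given hexavalent chromium, captan or folpet. They make up 4 of the 2756 genes of the table and 5 of its 3045 rows, since Gadd45a has 2 rows, called here its first and second row. All 5 rows passed the filter on low counts, and the lowest count of any of them in any library was 148.

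The libraries were made from formalin-fixed, paraffin-embedded duodenum of male wildtype B6C3F1 mice, a hybrid laboratory strain, with TempO-Seq, a targeted assay that ligates and sequences pairs of short DNA probes lying next to each other on a transcript. Exposure lasted 28 days. The groups were Cr(VI) at 180 ppm in drinking water, captan at 6000 ppm or at 12000 ppm in the diet, folpet at 6000 ppm or at 16000 ppm in the diet, with 7 libraries each, and a control group of 5. Captan and folpet are fungicides with the same trichloromethylthio group on an imide; the ring fused to that imide is partly hydrogenated in captan and aromatic in folpet. The sources used here do not say whether each library is a separate mouse, so p-values measure only the spread between these libraries, which may be technical in part.

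p53 is a transcription factor that is stabilised by DNA damage and other stress and switches on genes that stop the cell cycle, repair DNA or kill the cell. Cdkn1a encodes p21, which binds cyclin-dependent kinases and PCNA and holds cells before S phase. Mdm2 encodes the ubiquitin ligase that sends p53 for degradation, and p53 in turn raises Mdm2, which closes a feedback loop. Btg2 encodes an antiproliferative protein that brings the CCR4-NOT deadenylase to messenger RNAs, and Gadd45a a small stress protein that binds the p38 pathway kinase MAP3K4, PCNA and p21. All of them also answer to signals other than p53. In the small intestine, cells divide in the crypts and leave the cycle as they move onto the villi, where p21 is found in differentiating cells.

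The start regions of Cdkn1a and Btg2, the 2 genes that changed, are shown because they differ in the sequence motifs they hold. They are RefSeq windows of 250 bases before and 50 bases after the annotated start, in build GRCm38.p6; all 4 genes matched the table by symbol. Capitals mark the letters of the motifs searched on both strands: the p53 consensus (a pair of half-sites without spacer), the CATG form of its core, CATGNNNNNNCATG, the cAMP response element TGACGTCA, the GC box GGGCGG, the CCAAT box CCAAT and the TATA core TATAA. The consensus also allows other letters in its core.

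Cdkn1a upstream start, chr17:29090729-29091028, plus strand: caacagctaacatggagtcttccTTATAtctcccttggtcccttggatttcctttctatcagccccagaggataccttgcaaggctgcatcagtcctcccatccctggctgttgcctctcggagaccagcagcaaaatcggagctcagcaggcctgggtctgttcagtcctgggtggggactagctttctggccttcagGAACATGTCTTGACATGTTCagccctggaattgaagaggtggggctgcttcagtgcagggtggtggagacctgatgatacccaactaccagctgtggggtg

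Cdkn1a second start, chr17:29093519-29093818, plus strand: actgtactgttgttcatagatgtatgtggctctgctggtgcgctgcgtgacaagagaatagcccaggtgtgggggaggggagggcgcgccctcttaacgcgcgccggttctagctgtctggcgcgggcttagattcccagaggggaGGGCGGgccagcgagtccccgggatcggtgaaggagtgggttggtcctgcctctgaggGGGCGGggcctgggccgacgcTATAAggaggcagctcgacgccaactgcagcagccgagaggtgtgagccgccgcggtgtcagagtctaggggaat

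Btg2 start, chr1:134079106-134079405, minus strand: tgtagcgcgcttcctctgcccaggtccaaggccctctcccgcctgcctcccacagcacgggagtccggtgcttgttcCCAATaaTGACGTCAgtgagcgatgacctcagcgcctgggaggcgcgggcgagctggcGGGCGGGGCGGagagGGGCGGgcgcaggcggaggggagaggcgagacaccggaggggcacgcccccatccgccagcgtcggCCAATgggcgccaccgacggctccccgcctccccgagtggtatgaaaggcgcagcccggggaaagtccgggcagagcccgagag

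The upstream Cdkn1a window held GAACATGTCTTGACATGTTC from base -51 to base -32 before the start, which matches the p53 consensus with 1 mismatch. Of the 32851 windows of the same length, 0.0883% held a match with at most 1 mismatch. The CATG form of the core, which here lies within the longer match, was in 0.712% of windows. The same window also held the TATA core on the opposite strand from base -227 to base -223. The second Cdkn1a window held 2 GC boxes and a TATA core from base -25 to base -21; 35.7% of all windows held a GC box and 24.9% a TATA core. The Btg2 window held the cAMP response element from base -166 to base -159, present in 1.79% of all windows, 3 GC boxes, of which 2 overlap by a base, and 2 CCAAT boxes, present in 37.4%. The Mdm2 window held 2 GC boxes and 1 CCAAT box, and the Gadd45a window 1 of each. No match to the p53 consensus lay in the second Cdkn1a window or in those of Btg2, Mdm2 and Gadd45a, which says only that these letters are not in those windows; the p53-responsive promoter of Mdm2 is known to lie in its first intron. The counts do not tell which start of Cdkn1a was used.

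The libraries held between 1763440 and 7904819 counts (median 4682822). The enterocyte markers measured, Fabp1, Fabp2 and Apoa1, were present, with group medians of their summed level between 80740 CPM after folpet at 16000 ppm and 50023 CPM in control; no listed marker of goblet or Paneth cells was measured. Transcripts of a pancreatic acinar list of 19 measured genes, some of which the gut also expresses, took very different shares of the counts: medians of 54.4% after Cr(VI), 26.9% and 2.34% after captan at 6000 and 12000 ppm, 16.7% and 26.9% after folpet at 6000 and 16000 ppm, and 42.1% in control. The share was over 50% in 4 Cr(VI) libraries, 1 library of captan at 12000 ppm and 2 control libraries (replicates 4 and 5). Replicate 5 of the control was also shallow, with 2121824 counts and 1460 rows above 0. In bulk tissue, fewer cells of a type and less RNA per cell cannot be told apart.

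Levels below are in CPM, counts brought to a common library size after scaling by the trimmed mean of M-values (TMM), and a change is called where the Benjamini-Hochberg adjusted p of edgeR's quasi-likelihood test, over all 2541 rows tested, is under 0.05. Log2 fold changes are given with their standard error.

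**Figure D1:**
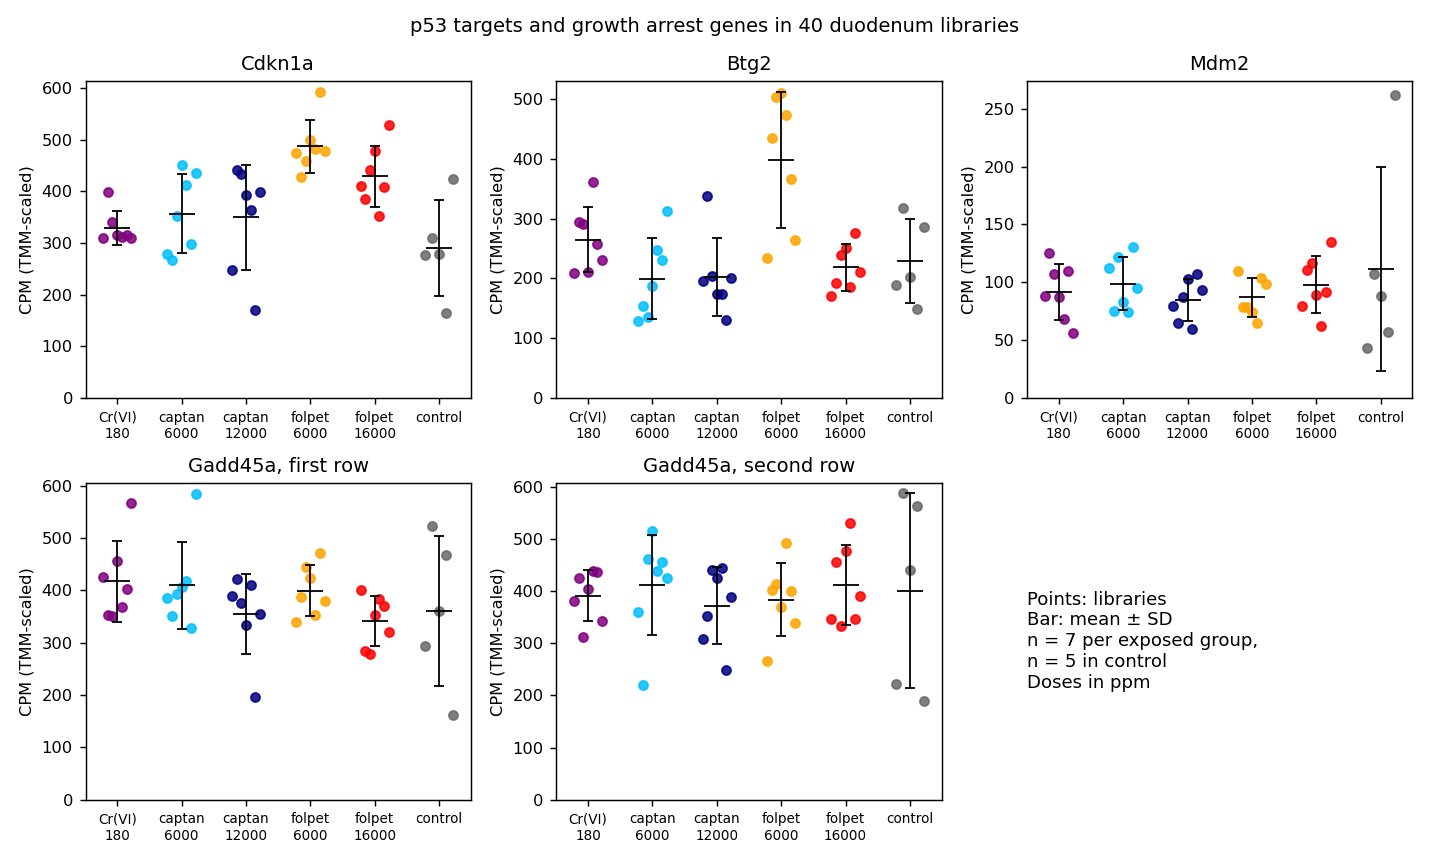
TMM-scaled CPM of each row of Cdkn1a, Btg2, Mdm2 and Gadd45a in the 40 libraries, by group, with mean ± SD (n = 7 per exposed group, n = 5 in control). Every library of folpet at 6000 ppm lies above every control library for Cdkn1a, and Btg2 is high in 5 of the 7 libraries of that group.

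Cdkn1a, the cell cycle inhibitor, rose with folpet at both doses. At 6000 ppm its 7 libraries had from 427 to 592 CPM with a median of 478 CPM, against 276, 309.5, 279, 164 and 423 CPM in control. All 7 folpet libraries were above all 5 controls. The means were 488 ± 51.4 CPM with folpet at 6000 ppm and 290.5 ± 92.5 CPM in control (SD, n = 7 and n = 5), a log2 fold change of 0.75 ± 0.18 (adjusted p = 0.00565) or 1.68-fold. Over the whole table, 2.99% of rows (76 of 2541) were higher in this comparison with no overlap between the groups, and 6.22% were called in either direction.

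With folpet at 16000 ppm Cdkn1a ran from 353 to 528 CPM with a median of 411 CPM, against the same controls. All 7 libraries lay above the control mean and 3 lay above the highest control, so the groups overlapped. The mean of 429 ± 58.9 CPM with folpet at 16000 ppm against 290.5 ± 92.5 CPM in control gave a log2 fold change of 0.57 ± 0.18 (adjusted p = 0.0316), in a comparison where 12.6% of all rows were called. This call was lost when any of control replicates 1, 3 and 4 or folpet replicates 4 and 7 was left out, with adjusted p up to 0.135 (log2 fold change 0.42) without control replicate 4.

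The other exposures gave smaller differences in Cdkn1a that were not called. After Cr(VI) the gene ran from 309 to 398 CPM with a median of 316 CPM, and 6 of its 7 libraries lay within 309 to 341 CPM. Its mean of 329 ± 32.3 CPM after Cr(VI) against 290.5 ± 92.5 CPM in control gave a log2 fold change of 0.18 (95% interval -0.18 to 0.55). Captan at 6000 ppm gave a range from 268 to 451 CPM with a median of 353 CPM and a log2 fold change against control of 0.30 (-0.07 to 0.67). Captan at 12000 ppm gave a range from 170.0 to 441 CPM with a median of 393 CPM and a log2 fold change of 0.27 (-0.09 to 0.64). Both captan intervals include the value seen with folpet at 16000 ppm. The percentages of all rows called against control were 5.94% for Cr(VI), 5.16% for captan at 6000 ppm and 6.18% for captan at 12000 ppm. In these comparisons edgeR, DESeq2 and limma-voom called 0 of the 5 rows of the 4 genes, and 0 had an unadjusted edgeR p under 0.05.

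By mean level, the groups ran from folpet at 6000 ppm (488 CPM) through folpet at 16000 ppm (429 CPM), captan at 6000 ppm (357 CPM), captan at 12000 ppm (350.0 CPM) and Cr(VI) (329 CPM) to control (290.5 CPM). No step between neighbours in this order was larger than the larger SD of the pair. Folpet at 16000 ppm differed from folpet at 6000 ppm by a log2 fold change of -0.18 ± 0.16 (adjusted p = 0.886).

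Btg2, the antiproliferative deadenylase adaptor, rose with folpet at 6000 ppm and was called in 1 of the 5 comparisons with control. Its 7 libraries there had 234, 435, 503, 510.4, 474, 366 and 264 CPM, against 189.6, 319, 203, 149 and 286 CPM in control. In 5 of the 7 the gene was above every control, while the remaining 2, at 234 and 264 CPM, fell inside the control range. The means of 398 ± 113 CPM with folpet at 6000 ppm and 229 ± 70.6 CPM in control gave a log2 fold change of 0.80 ± 0.22 (adjusted p = 0.0203), or 1.74-fold. Both called rows of that comparison, Cdkn1a and Btg2, stand among 117 that rose and 41 that fell over the table.

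The Btg2 call against control was lost without control replicate 4 (log2 fold change 0.68, adjusted p = 0.0787). It was also lost without the 7 libraries whose acinar share was over 50% (0.78, adjusted p = 0.126) and with that share as a covariate (0.73, adjusted p = 0.0773), while the fold change stayed within the range of the single-library omissions, 0.68 to 0.98.

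At the higher folpet dose Btg2 was lower than at the lower dose and inside the control range. It ran from 171 to 277 CPM with a median of 211 CPM after folpet at 16000 ppm, against a range from 234 to 510.4 CPM and a median of 435 CPM after folpet at 6000 ppm. Of the 7 high-dose libraries, 4 lay below the lowest low-dose library. The means of 218 ± 38.5 CPM at 16000 ppm and 398 ± 113 CPM at 6000 ppm gave a log2 fold change of -0.87 ± 0.20 (adjusted p = 0.0124), where 1.73% of all rows were called. Against control the higher dose gave -0.07 (95% interval -0.51 to 0.38).

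Captan at the same 6000 ppm gave 0.502 times the Btg2 level of folpet. The captan libraries had 129, 154, 136, 187, 248, 231 and 312 CPM, against the 7 folpet values above. Each captan library was below the folpet mean and 5 were below the lowest folpet library. The means of 199.6 ± 67.4 CPM with captan and 398 ± 113 CPM with folpet gave a log2 fold change of -0.99 ± 0.20 (adjusted p = 0.00867). Only 0.157% of all rows, 4 of 2541, were called in this comparison of compounds, and Btg2 had the third lowest p among them.

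The other 3 rows, named here after their values were seen, also had lower levels with captan than with folpet. Tsc22d3, which encodes the glucocorticoid-induced leucine zipper GILZ, had a log2 fold change of -1.11, Ddit4, an inhibitor of mTORC1 signalling that p53 can induce, -2.22, and Nfkbia, the inhibitor of NF-kappaB, -0.64. Ddit4 had 26.9 ± 14.5 CPM with captan, 125 ± 46.6 CPM with folpet and 54.4 ± 58.3 CPM in control. Tsc22d3 had 1046 ± 292 CPM with captan, 2263 ± 214 CPM with folpet and 935 ± 198 CPM in control. Nfkbia had 548 ± 98.0 CPM with captan, 854 ± 190 CPM with folpet and 650 ± 94.5 CPM in control. In each of these 3 rows the folpet mean was above the control mean. Btg2 shares its folpet 6000 ppm libraries with the comparison against control, so its lower level with captan and its rise over control are not independent.

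The remaining contrasts between compounds are given with their intervals. Cdkn1a was lower with captan than with folpet at 6000 ppm in every captan library against the folpet mean, with a log2 fold change of -0.45 (95% interval -0.78 to -0.12), but its adjusted p was 0.437. Mdm2 gave 0.19 (-0.33 to 0.70) in the same comparison, and the Gadd45a rows 0.04 (-0.30 to 0.38) and 0.10 (-0.27 to 0.47). The high doses differ, 12000 ppm for captan and 16000 ppm for folpet, so their levels only stand side by side: Btg2 averaged 203 ± 64.8 CPM with captan and 218 ± 38.5 CPM with folpet, and Cdkn1a 350.0 ± 102 CPM with captan and 429 ± 58.9 CPM with folpet.

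None of the 5 rows was called for the dose step of captan, from 6000 to 12000 ppm, and 0 had an unadjusted edgeR p under 0.05. Among all rows tested, 0% were called by edgeR and 0 by DESeq2 or limma-voom, while 148 had an unadjusted edgeR p under 0.05. Btg2 differed by 0.02 (95% interval -0.38 to 0.42) and Cdkn1a by -0.03 (-0.36 to 0.30). A test of the folpet step against the captan step gave -0.89 ± 0.28 for Btg2 (unadjusted p = 0.00304, adjusted p = 0.574). In that test 0% of rows were called by edgeR, 0 by DESeq2 and 1 by limma-voom, and 168 rows had an unadjusted edgeR p under 0.05. The 2 dose steps of Btg2 are therefore not shown to differ.

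Cr(VI) was set against the high dose of each fungicide. Cdkn1a was lower in 6 of 7 Cr(VI) libraries than in any library of folpet at 16000 ppm, with means of 329 ± 32.3 CPM after Cr(VI) and 429 ± 58.9 CPM after folpet, but the log2 fold change of -0.38 ± 0.16 was not called (adjusted p = 0.166), where 7.32% of rows were. Against captan at 12000 ppm, where 4.64% of rows were called, it gave -0.09 (95% interval -0.42 to 0.24). Btg2 was higher in Cr(VI) by 0.39 (-0.01 to 0.79) against captan and by 0.28 (-0.12 to 0.68) against folpet, and neither was called.

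**Figure D2:**
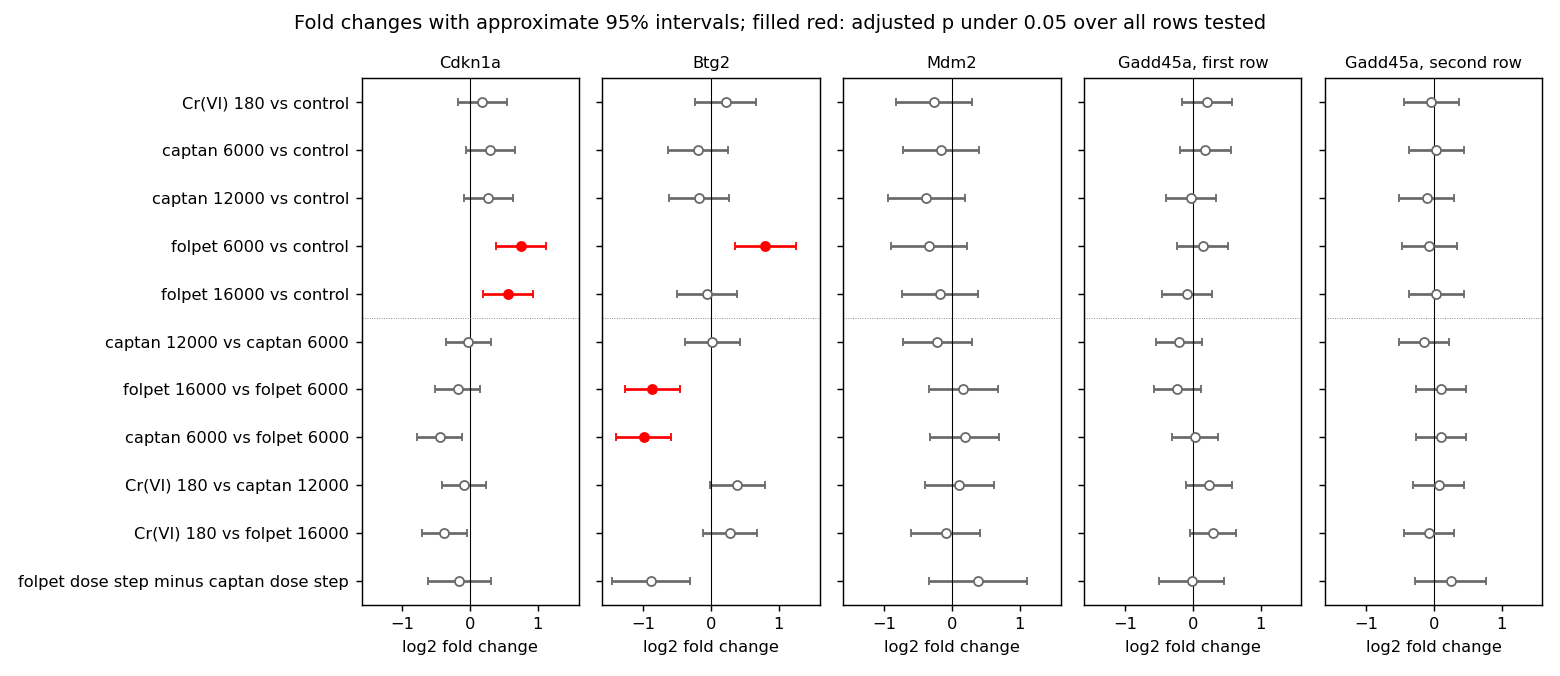
Log2 fold change of each row in the 11 comparisons, with approximate 95% intervals from edgeR; filled red points have an adjusted p under 0.05. The called points are Cdkn1a with folpet at both doses against control, and Btg2 with folpet at 6000 ppm against control, with folpet at 16000 against 6000 ppm and with captan against folpet at 6000 ppm.

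Mdm2, the p53 ubiquitin ligase, was called in none of the 11 comparisons by edgeR, DESeq2 or limma-voom, and 0 of them had an unadjusted edgeR p under 0.05. It ran from 56.6 to 125 CPM with a median of 87.9 CPM after Cr(VI), from 74.01 to 131 CPM with a median of 94.8 CPM after captan at 6000 ppm, and from 59.6 to 108 CPM with a median of 87.7 CPM after captan at 12000 ppm. Folpet gave from 64.5 to 109.7 CPM (median 78.9 CPM) at 6000 ppm and from 62.2 to 135 CPM (median 91.8 CPM) at 16000 ppm. The controls had 43.4, 107, 88.2, 56.8 and 262 CPM. The highest of all 40 libraries was control replicate 5, the shallow one, and the exposed groups lay inside the control range.

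The log2 fold change of Mdm2 against control was -0.27 after Cr(VI) (95% interval -0.83 to 0.29) and -0.16 to -0.38 after the fungicides, where the lowest interval, for captan at 12000 ppm, ran from -0.94 to 0.18. Without control replicate 5 all 5 fold changes were above 0, from 0.20 to 0.42, and none was called.

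Gadd45a, the stress protein that activates p38 signalling, was likewise called in no comparison in either of its rows, by any of these tools, and 0 of its 2 rows had an unadjusted edgeR p under 0.05 in any of them. Its first row ran from 351 to 568.1 CPM after Cr(VI), from 329 to 585 CPM after captan at 6000 ppm, from 196 to 421 CPM after captan at 12000 ppm, from 339 to 471 CPM after folpet at 6000 ppm and from 279 to 400.3 CPM after folpet at 16000 ppm. The controls had 294, 523, 360.4, 467 and 161 CPM. The control range thus spanned nearly all exposed libraries, with 1 Cr(VI) library and 1 library of captan at 6000 ppm above it.

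The second row averaged 391 ± 49.1 CPM after Cr(VI), 411 ± 95.9 and 372 ± 74.1 CPM after captan at 6000 and 12000 ppm, 383 ± 70.1 and 411 ± 76.6 CPM after folpet at 6000 and 16000 ppm, and 401 ± 187 CPM in control. No exposed library lay outside the control range of 190.0 to 588 CPM. Against control the log2 fold changes ran from -0.08 to 0.21 in the first row and from -0.11 to 0.03 in the second, with 95% intervals that reached from -0.52 to 0.58. Without control replicate 5 they ran from -0.27 to 0.02 in the first row and from -0.28 to -0.14 in the second, and none was called. The 2 rows read the same gene with different probes, yet their Spearman correlation over the 40 libraries was 0.31, as a description.

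Trp53 itself, the gene of p53, was called against control in none of the 5 groups. It averaged 215 ± 35.7 CPM after Cr(VI), 299.8 ± 54.4 and 334 ± 62.0 CPM after captan at 6000 and 12000 ppm, 284 ± 59.3 and 333 ± 69.4 CPM after folpet at 6000 and 16000 ppm, and 268 ± 111 CPM in control. Trp53 was lower after Cr(VI) than after captan at 12000 ppm (log2 fold change -0.64, adjusted p = 0.0311) and than after folpet at 16000 ppm (-0.63, adjusted p = 0.0240). In these comparisons 4.64% and 7.32% of all rows were called. Among p53 and its regulators DESeq2 called 1 gene in each, and limma-voom 0 against captan and 1 against folpet. With the acinar share as covariate, 32 of the 118 rows called between Cr(VI) and captan at 12000 ppm kept their calls. Of the 6 tested genes among p53 and its regulators, the coactivator gene Crebbp rose with folpet at 16000 ppm (0.46, adjusted p = 0.0329) and no other was called against control. In that comparison 12.6% of all rows were called, and of these 6 genes DESeq2 called 0 and limma-voom 1.

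Of 46 other known p53 targets listed, 23 were measured and tested. Against control 3 of the 23 were called with folpet at 16000 ppm, beside 12.6% of all rows, 1 after Cr(VI), beside 5.94%, and 0 in the other comparisons. With folpet at 6000 ppm edgeR called 0 of them, against 1 by DESeq2 and 2 by limma-voom, and 5 were higher and 0 lower at an unadjusted edgeR p under 0.05. Their median log2 fold change was 0.17 beside 0.00 over all rows. With folpet at 16000 ppm 1 rose and 2 fell, with a median of 0.21 beside -0.05. Plk3, a stress kinase gene, rose by 0.90 (adjusted p = 0.0448). Igfbp3, which encodes a binding protein of insulin-like growth factors, and Sesn1, a sestrin that restrains mTORC1, fell (-1.57 and -1.28, adjusted p = 0.000189 and 0.0201). A second row of Igfbp3, with fewer counts, was not called (-1.02, adjusted p = 0.153).

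Cr(VI) lowered Igfbp3 (-1.04, adjusted p = 0.0274) and no other gene of the list, with a median of 0.18 beside -0.03 over all rows. With captan at 6000 ppm edgeR called 0 of the 23, DESeq2 0 and limma-voom 1, with 5 at an unadjusted edgeR p under 0.05 and a median of 0.14. With captan at 12000 ppm edgeR called 0, DESeq2 1 and limma-voom 0, with 4 at an unadjusted p under 0.05 and a median of 0.05. Without control replicate 5, and likewise without the libraries over 50% acinar, Ddit4 was called higher with folpet at 6000 ppm. In both cases Plk3 was no longer called with folpet at 16000 ppm. With the acinar share as covariate Ddit4 was likewise called and Plk3 was not. Rps27l, a ribosomal protein gene that p53 can induce, was called higher with folpet at 16000 ppm without the libraries over 50% acinar and with the covariate. The Igfbp3 call after Cr(VI) was lost without those libraries and kept in the other 2 checks. The list's medians against control ran from -0.03 to 0.25 in these 3 checks. The checks were added after the data were seen. Igfbp3 and Sesn1 were also called lower with folpet at 16000 than at 6000 ppm (-1.15 and -1.45), where 1.73% of all rows were called. In this step 9 of the 23 genes had a fold change above 0, with a median of -0.11 beside -0.03 over all rows.

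Most genes whose products p21 binds or acts through had fold changes below 0. Of 18 listed cyclins, kinases and RB pathway genes, 14 were measured and 13 tested. The median log2 fold changes were -0.46 after Cr(VI), -0.50 and -0.44 after captan at 6000 and 12000 ppm, and -0.53 and -0.32 after folpet at 6000 and 16000 ppm, with 3 of 13 above 0 in each comparison. These comparisons share the same control libraries, so they are not independent of each other. Of the 13, 4 fell after Cr(VI), where 5.94% of all rows were called. With captan 1 rose and 1 fell at 6000 ppm (5.16% of all rows called), and 1 fell at 12000 ppm (6.18%). With folpet 2 fell at 6000 ppm (6.22%), and 1 rose and 2 fell at 16000 ppm (12.6%).

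Ccnd2, which encodes cyclin D2, was called in all 5 comparisons, which share their controls, and fell by 0.75 to 1.29 on the log2 scale. It averaged 112 ± 24.8 CPM after Cr(VI) and 268 ± 83.0 CPM in control. With captan at 12000 ppm the call was lost in each of the same 3 checks. With folpet at 16000 ppm it was kept in each. Without the libraries over 50% acinar it was lost in the other 3 comparisons as well, and with the acinar share as covariate it was also lost with folpet at 6000 ppm. Cr(VI) also lowered Ccna2 (cyclin A2, -0.84), Cdk4 (the partner kinase of D cyclins, -0.81) and E2f2 (an S phase transcription factor, -1.45), and Cdk4 fell with folpet at 16000 ppm (-0.64). This Cdk4 call with folpet was kept with the acinar share as covariate. It was lost without control replicate 5 and without the libraries over 50% acinar. E2f2 was also called lower with folpet at 6000 ppm. That call was kept without control replicate 5 and without the libraries over 50% acinar, and lost with the acinar share as covariate. Rb1, the gene of the retinoblastoma protein that holds E2F factors, rose with captan at 6000 ppm (0.88) and folpet at 16000 ppm (1.03). The Rb1 call with captan was lost without the libraries over 50% acinar and kept in the other checks, and that with folpet was kept in each. The second rows of Ccnd2, Cdk4 and Ccna2, with fewer counts, were called in none of these comparisons.

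Of the 4 falls after Cr(VI), 3 were called without control replicate 5 and all 4 with the acinar share as covariate. Without the libraries over 50% acinar 0 were called, a check that leaves out 4 of 7 Cr(VI) and 2 of 5 control libraries. Markers of proliferating crypt cells, some of which are also in the p21 list, had lower group medians too: their summed level over 12 measured genes had medians of 571 CPM after Cr(VI), 678 and 826 CPM after captan at 6000 and 12000 ppm, 710 and 778 CPM after folpet at 6000 and 16000 ppm, and 867 CPM in control. All 7 Cr(VI) libraries, from 342 to 701 CPM, were below all 5 controls, from 793 to 1199 CPM. Over the whole table, 0.748% of single rows were lower in this comparison with no overlap. That share is for single rows, and no share was worked out for sums over several genes. The highest control was replicate 5, in which 8 of the 14 rows of these markers were at 0. Of 11 tested genes of this list, edgeR called 2 lower after Cr(VI), beside 5.94% of all rows, and 1 with captan at 6000 ppm, beside 5.16%. In the other comparisons with control it called 0.

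Some markers of other cell types differed from control beside the p21 list. Of all rows, 5.94% were called against control after Cr(VI). The shares were 5.16% and 6.18% with captan at 6000 and 12000 ppm, and 6.22% and 12.6% with folpet at 6000 and 16000 ppm. Of 6 tested smooth muscle genes, 1 fell after Cr(VI), 2 with each captan dose and with folpet at 6000 ppm, and 3 with folpet at 16000 ppm, with median log2 fold changes from -0.99 to -0.55. Their summed level had medians of 1500 CPM after Cr(VI), 1494 and 1514 CPM after captan at 6000 and 12000 ppm, 1331 and 1401 CPM after folpet at 6000 and 16000 ppm, and 1737 CPM in control. Of 8 tested lymphocyte genes, 1 fell after Cr(VI) and 1 with folpet at 16000 ppm, the latter close to the share of all rows. Their median log2 fold changes ran from -0.81 to -0.38 over the 5 comparisons. Their summed level was not lower throughout, with medians of 153 CPM after Cr(VI), 340.0 and 284 CPM after captan, 327 and 161 CPM after folpet, and 269.9 CPM in control. Of the 3 enterocyte genes, 1 to 3 rose in each of the 5 comparisons, with medians from 0.55 to 0.78. The part of these cell types in the levels of Cdkn1a, Btg2 and the p21 list was not tested.

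**Figure D3:**
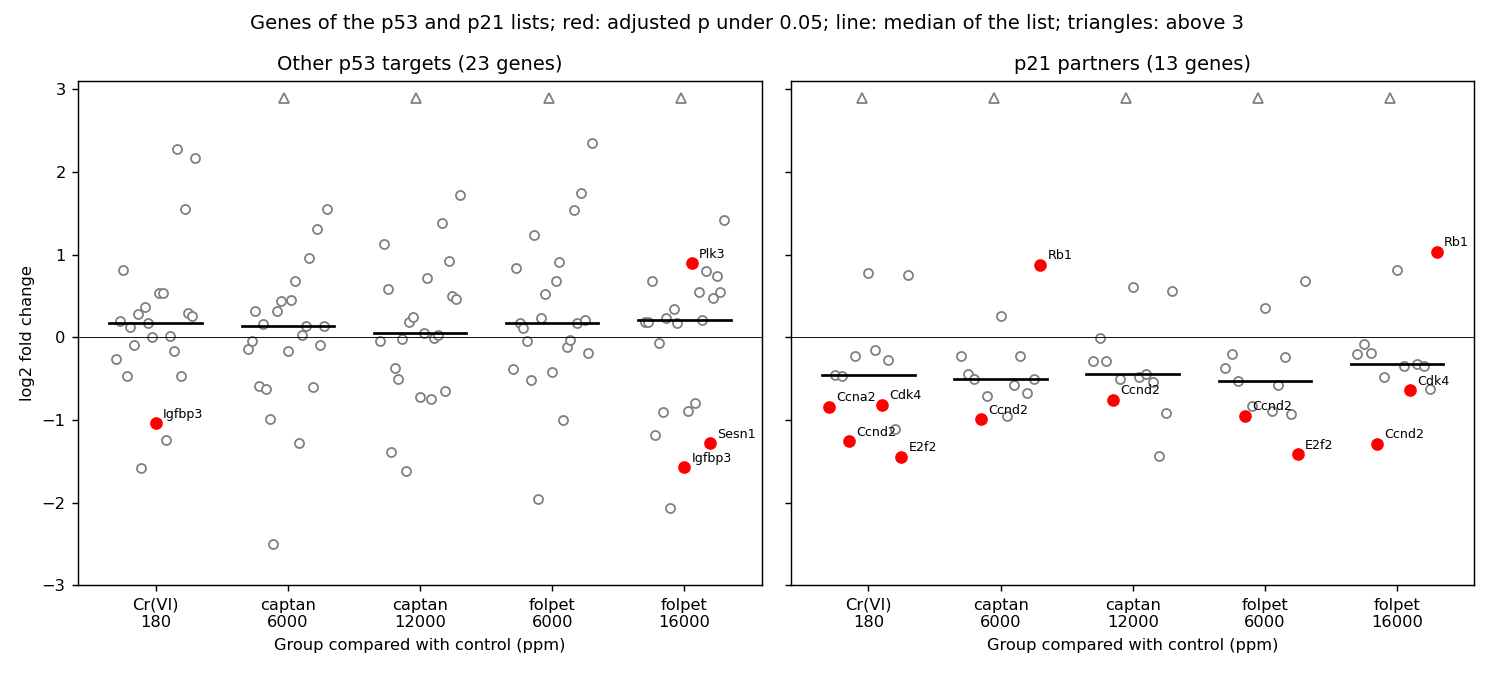
Log2 fold changes against control of 23 other p53 targets and 13 partners of p21, each point a gene, red where the adjusted p is under 0.05; triangles at the top edge mark genes above 3, which had 0 or few counts in control. The p53 targets scatter around 0, with medians from 0.05 to 0.21, and the p21 partners lie mostly below 0, with medians from -0.53 to -0.32.

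Among close relatives, Cdkn1b, which encodes the kinase inhibitor p27, fell with captan at 12000 ppm, to 191 ± 28.3 CPM against 306 ± 71.5 CPM in control (-0.68, adjusted p = 0.00545), and with folpet at 16000 ppm, to 206 ± 26.1 CPM (-0.57, adjusted p = 0.0134). In folpet at 16000 ppm, then, Cdkn1a was higher and Cdkn1b lower than in control. Gadd45g fell with captan at 6000 ppm, to 42.7 ± 13.7 CPM against 123 ± 99.99 CPM in control (-1.51, adjusted p = 0.00994), and Gadd45b was not called in any comparison with control. The Gadd45g levels in control ran from 39.9 to 262 CPM with a median of 74.6 CPM. With captan at 6000 ppm DESeq2 called 1 of these 2 relatives and limma-voom called 0. Klf4, a Krüppel-like factor that restrains the gut cell cycle, rose in all 5 groups by 1.32 to 1.53 against the same control libraries, including those groups in which Cdkn1a was not called. Cebpb, also of the list of 7 tested growth arrest and stress genes, rose with folpet at 16000 ppm (0.54), and of the 2 tested partners of GADD45 proteins and Btg2, edgeR, DESeq2 and limma-voom called 0 against control, with 0 at an unadjusted edgeR p under 0.05.

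Over the 40 libraries Cdkn1a and Btg2 tended to be high together, with a Spearman correlation of 0.56, and 0.45 for deviations from the group means. Libraries share depth and tissue makeup, and the values are a description. Among other genes, Btg2 ranked 27 in likeness to Cdkn1a, and Cdkn1a ranked 15 in likeness to Btg2. Mdm2 had 0.12 with Cdkn1a and -0.44 with the first row of Gadd45a, and the Gadd45a rows had at most 0.20 with Cdkn1a or Btg2.

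The rows most like Cdkn1a over the 40 libraries were those of Tsku (0.70), Bpnt1 (0.69) and Taldo1 (0.65), and most like Btg2 those of Tmc7 (0.70), 2600001M11Rik (0.66) and Herpud1 (0.63). Within groups these fell to 0.31, 0.25 and 0.30 for Cdkn1a and to 0.37, 0.41 and 0.30 for Btg2. Mdm2 was most like Birc3 (0.55), Ap2m1 (0.54) and the row listed as ZFP91CNTF (0.50). The first row of Gadd45a was most like Ppard, Slc35f2 and Dio1 (0.58 each), and Aspm (0.66) and Grb2 (0.65) were among the rows most like the second. The median over all other rows was between -0.02 and 0.01 for each.

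**Figure D4:**
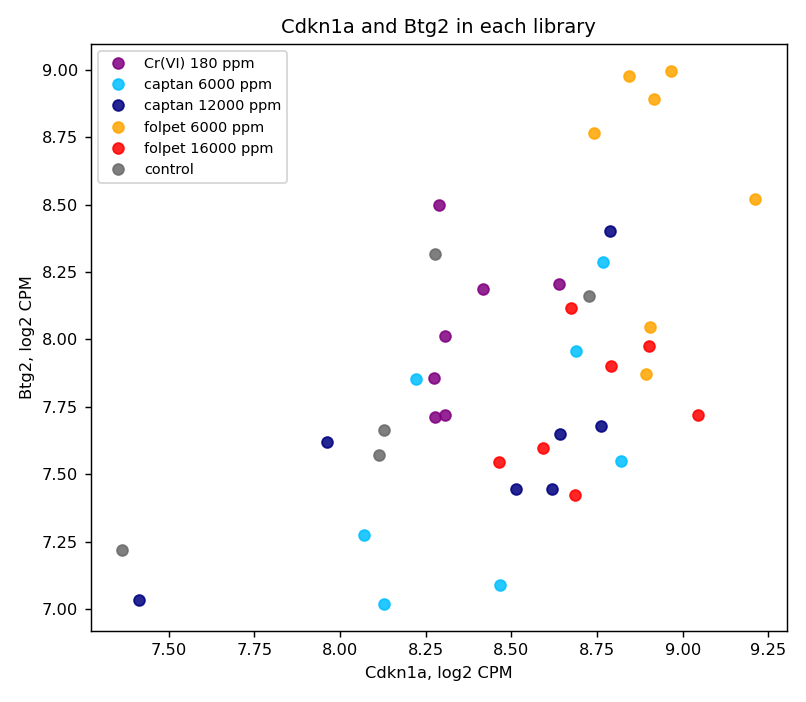
Log2 CPM of Cdkn1a (horizontal) and Btg2 (vertical) in each of the 40 libraries, coloured by group. The libraries of folpet at 6000 ppm lie to the right and 5 of them at the top, while those of folpet at 16000 ppm have high Cdkn1a with Btg2 in the control range.

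The acinar share of a library and the level of these genes were only weakly related: Spearman correlations over the 40 libraries were -0.27 for Cdkn1a, 0.06 for Btg2, 0.09 for Mdm2 and -0.05 and -0.09 for the Gadd45a rows, and within groups between -0.21 and 0.09. Cdkn1a with folpet at 6000 ppm kept its call without the libraries over 50% acinar (log2 fold change 0.79, adjusted p = 0.0191) and with the share as a covariate (0.77, adjusted p = 0.0188). The 2 Btg2 differences between exposed groups were also called without those libraries (-0.88 and -1.01, adjusted p = 0.0132 and 0.00971). None of the groups in these 2 comparisons held a library over 50% acinar. The omission took no library from them, so it cannot tell whether these differences depend on the share. With the share as a covariate both were called (adjusted p = 0.0120 and 0.00761).

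**Figure D5:**
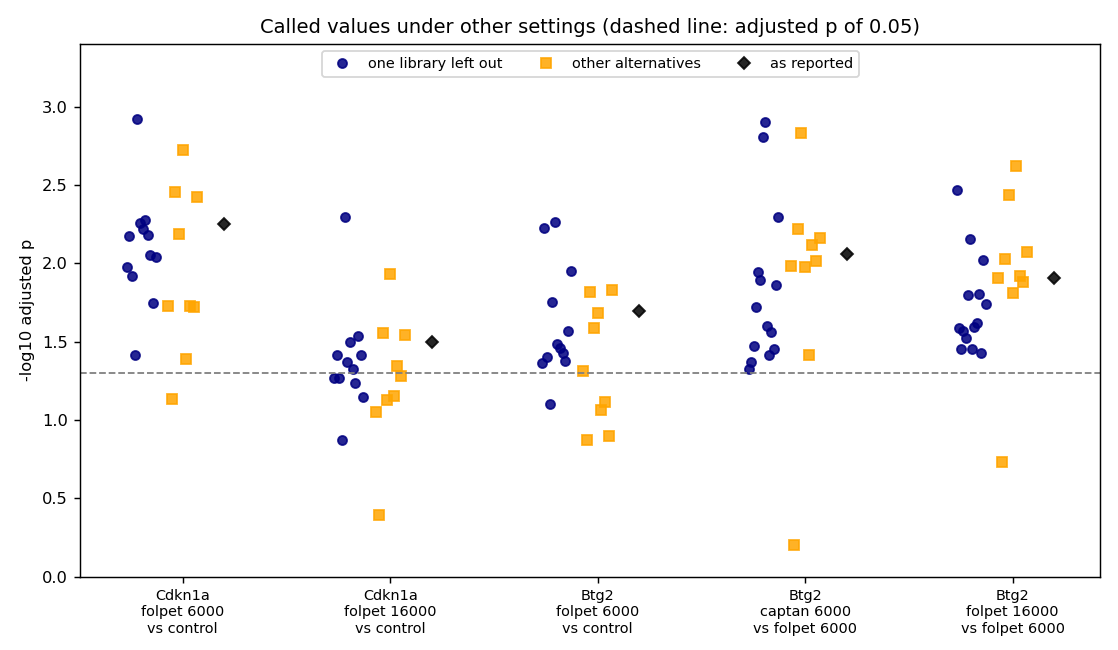
Adjusted p (as -log10, vertical) of the 5 called values when each library in turn is left out (circles), under the other alternatives (squares) and as reported (diamonds); the dashed line is an adjusted p of 0.05. Cdkn1a with folpet at 6000 ppm and both Btg2 differences between exposed groups stay above the line in every omission, and every result has a square below the line, which for those 3 is the scaling by library totals alone.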

How the data were processed

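The authors deposited whole-number counts per probe (3045 rows, 2756 symbols) for 40 libraries; neither the header nor the values show a normalization. Per the submitters' processing notes, build mm9, Bowtie (no version) and bcl2fastq 2.17.1.14 were used, and the role of each is not stated. Columns were matched to samples by title and groups by the labelled exposure; replicate numbers, given in accession order, are names alone. The sources used here give no probe positions, so promoter coordinates are RefSeq's, in GRCm38.p6, and were not converted.

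The analysis used edgeR 4.0.16 in R 4.3.3. Low rows were removed by filterByExpr (minimum count 10, minimum total 15), which kept 2541; after TMM scaling, all 40 libraries entered one robust quasi-likelihood fit with a mean for each group and 34 residual degrees of freedom. Tests are 2-sided, with Benjamini-Hochberg adjustment over all tested rows and a threshold of 0.05. Standard errors are the log2 fold change over the square root of F, and intervals use the moderated degrees of freedom; both are approximate. Log2 CPM used a prior count of 2. A gene with 2 rows enters list counts by the row with more counts. The fit was tested on simulated data. Alternatives were other scalings, no filter, DESeq2 1.42.0, limma-voom 3.58.1, the compared groups alone, the acinar share as covariate, no libraries over 50% acinar, summed rows and omission of each library.

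Depth, 1763440 to 7904819 counts in a library, limits low rows most. Ligated probe pairs are amplified before sequencing, and the sources used here mention no molecular identifiers, so counts are not independent molecules. The genes, the lists and the tests were chosen with earlier results of these data known. Named genes are all rows of the 4 genes, the 3 rows most like each, called genes of the lists and the closest relatives of the 4 genes; genes named outside this rule are marked in the text, and 1 row that it selects is not reported here.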

Additional observations from a re-analysis of the deposited data

Results flagged for a closer look

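Of 30 groups of values checked (5 rows in 6 groups), 4 held a library far from the rest of its group, where chance gives about 1 in 20. The first row of Gadd45a was at 585 CPM in replicate 7 of captan at 6000 ppm, the highest of that group, and at 196 CPM in replicate 6 of captan at 12000 ppm, the lowest of that group. Btg2 was at 338 CPM in replicate 2 of captan at 12000 ppm, and Cdkn1a at 398 CPM in replicate 2 of Cr(VI), each the highest of its group.

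A pair of Btg2 differences between exposed groups passed the test of the difference itself. Its level was lower with folpet at 16000 ppm than at 6000 ppm (log2 fold change -0.87) and lower with captan than with folpet at 6000 ppm (-0.99). Both rest on the same 7 libraries of folpet at 6000 ppm.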

How the results depend on the processing

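No paired analysis was possible because the labels give no replicate numbers shared between groups. Calls of the 5 rows depended on the scaling and on single libraries. With library totals alone as scaling, which put the median log2 fold change of all rows between -0.78 and 0.44 in single comparisons, 0 rows were called in the 4 comparisons that had calls, and 1 (Cdkn1a, -0.81) for Cr(VI) against captan at 12000 ppm. Folpet at 16000 ppm against control, with 1 call as reported, had 0 with DESeq2's size factors, with DESeq2, with the compared groups alone and without the libraries over 50% acinar. Folpet at 6000 ppm against control, with 2 calls as reported, had 1 with the compared groups alone, with the acinar share as covariate and without those libraries. Cr(VI) against folpet at 16000 ppm had 1 call, Cdkn1a, with the compared groups alone. Leaving out each library gave 1 to 2 calls for folpet at 6000 ppm and 0 to 1 for folpet at 16000 ppm against control.

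In all, 12 of the fold changes under other settings and 6 under omissions lost a call, 2 gained one, and no called value changed sign; 58 and 52 changed sign without a call. The cause of these changes was not tested. With only 5 controls, of which 2 hold over 50% acinar counts, each comparison with control rests on few libraries. Counts of called rows over the table ranged, under the other settings, from 14 to 231 for Cr(VI), from 29 to 213 and from 29 to 259 for captan at 6000 and 12000 ppm, and from 51 to 225 and from 57 to 393 for folpet at 6000 and 16000 ppm, all against control. They ranged from 9 to 113 for the folpet dose step, from 1 to 13 for captan against folpet at 6000 ppm, from 26 to 504 for Cr(VI) against captan at 12000 ppm and from 66 to 234 for Cr(VI) against folpet at 16000 ppm.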
